A study of Mus musculus and Homo sapiens with 8 samples.

Results

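The genes of intestinal iron absorption and storage were examined by RNA-seq of small-intestinal crypts. They were Cybrd1, Slc11a2, Heph, Slc40a1, Fth1, Ftl1, Tfrc and Hfe, taken by symbol from the deposited expression table. All 8 were found among its 13359 distinct genes, and all 8 passed the filter on low values. The crypts came from untreated C57BL/6 mice aged 2 months, and every mouse carried the Apc Min allele over a wild-type allele, a truncation of the Wnt pathway regulator Apc that leads to intestinal adenomas. The controls were 2 libraries of Apc Min mice. The other 2 libraries came from Apc Min mice labelled as having Zmynd8, a gene for a chromatin reader, deleted in the intestinal epithelium (labelled Zmynd8 KO below). The labels do not name the Cre line that drove the deletion. Each library pooled RNA of 3 mice, so p-values measure only the spread between these pools. A further 4 ChIP-seq libraries of HCT116 colorectal cancer cells were not analysed here.

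Dietary iron enters the absorptive cell at its lumen-facing membrane and leaves it toward the blood, and what is not passed on is held in ferritin. The reductase encoded by Cybrd1 and the proton-coupled metal transporter encoded by Slc11a2 (DMT1) serve the uptake step. Slc40a1 encodes ferroportin, the exporter, and Heph encodes hephaestin, the oxidase that works with it. Fth1 and Ftl1 encode the heavy and light chains of ferritin, Tfrc the receptor that brings transferrin-bound iron into dividing cells from the blood side, and Hfe a relative of MHC class I that binds that receptor. When iron is scarce, the iron regulatory proteins bind hairpins in several of these transcripts, blocking translation of ferritin and protecting the Tfrc transcript from decay. Absorption is known to be strongest in the duodenum and in differentiated villus cells, while Tfrc is known as a gene of proliferating crypt cells.

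Zmynd8 RNA went against the label, since it was not lower but higher in both labelled pools. It had 6.94 and 4.73 FPKM in the Apc Min pools, against 7.30 and 7.65 FPKM in the labelled pools (log2 fold change 0.33, SE 0.18, limma adjusted p = 0.29). The deleted exons are not named in the labels, and reads over them were not tested. FPKM is a read count divided by the length of the gene and by the total of the library. The totals behind the values were between 44718091 and 48778712 reads per library. Over all genes the labelled Zmynd8 KO libraries had somewhat lower values, with a median log2 fold change of -0.15 among the 12948 genes tested. Median-ratio scaling, which sets the typical gene equal between libraries, took that median to -0.01. Fold changes are therefore also given after that scaling. Crypt markers were present in all libraries: 14 crypt base stem cell genes summed to 315 and 286 FPKM in the Apc Min pools, against 194 and 194 FPKM in the labelled pools. Olfm4 made up much of that sum, with 133 and 166 FPKM against 98.3 and 108.6 FPKM. Control replicate 1 stood apart in this list: its mean log2(FPKM + 1) was 3.80, where the other libraries had 3.14, 2.85 and 2.79, and the stem cell receptor gene Lgr5 had 14.8 FPKM there, where the others had 3.48, 2.74 and 3.19 FPKM.

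Promoter letters are shown for ferritin and the transferrin receptor, the storage and blood-side entry sides of the cell's iron balance. RefSeq promoter windows of the GRCm38.p6 build matched 5 of the 8 genes by symbol, namely Cybrd1, Ftl1, Hfe, Tfrc and Fth1. Each stretch below runs 5′ to 3′ over the 250 bases before a start site. Capitals mark the CCAAT box on either strand (CCAAT, or ATTGG where it lies on the other strand). The Fth1 window, chr19:9982396-9982645 on the plus strand, precedes the downstream one of the gene's listed starts, the Ftl1 window is chr7:45459887-45460136 on the minus strand, and the Tfrc window is chr16:32608646-32608895 on the plus strand, before the upstream one of its listed starts.
Fth1: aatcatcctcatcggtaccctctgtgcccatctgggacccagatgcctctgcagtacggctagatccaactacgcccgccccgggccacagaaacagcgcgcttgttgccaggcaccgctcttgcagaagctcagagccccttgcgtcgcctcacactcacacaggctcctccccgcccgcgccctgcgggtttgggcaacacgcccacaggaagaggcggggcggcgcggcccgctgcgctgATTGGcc
Ftl1: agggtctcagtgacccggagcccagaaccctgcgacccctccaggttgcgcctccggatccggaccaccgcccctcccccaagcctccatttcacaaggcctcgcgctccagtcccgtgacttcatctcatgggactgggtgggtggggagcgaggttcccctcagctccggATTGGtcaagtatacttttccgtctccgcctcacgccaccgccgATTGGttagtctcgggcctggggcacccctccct
Tfrc: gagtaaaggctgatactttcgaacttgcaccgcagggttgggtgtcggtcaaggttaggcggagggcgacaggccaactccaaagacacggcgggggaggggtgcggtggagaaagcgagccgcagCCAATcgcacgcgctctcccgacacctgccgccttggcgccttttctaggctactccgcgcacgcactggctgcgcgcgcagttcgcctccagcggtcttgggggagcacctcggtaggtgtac
The box lay from 7 to 3 bases before the Fth1 start. Ftl1 held it at 78 to 74 and again at 34 to 30 bases before its start, and Tfrc at 124 to 120. Fth1 and Tfrc have a second listed start each, and the windows before those, like the single windows of Cybrd1 and Hfe, held no box. In all, 3 of the 7 windows of these genes held it, where 33.8% of all 32851 RefSeq windows of this length did. The core of the hypoxia response element, ACGTG on either strand, was in 1 of the 7 windows, the one before the downstream Tfrc start, at 228 to 224 bases, and in 16.6% of all windows. The antioxidant response element core TGACNNNGC was also found in 1 of the 7, the Hfe window, as TGACTCAGC at 67 to 59 bases before the start, against 10.2% of all windows. That RefSeq start is at 23710854, while Hfe as listed with its expression values begins at 23710986 on the minus strand. The Hfe match therefore lies inside the listed gene. So does the Fth1 box, since listed Fth1 runs from 9980600 to 9985111. The ACGTG of Tfrc lies across the listed Tfrc start at 32608896. The Tfrc windows also overlap, since the downstream one begins at 32608872. These matches describe letters and show no binding.

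Expression of the 8 genes covered more than 2 orders of magnitude. Ferritin made up most of it. Fth1 and Ftl1 together took 89.0% and 87.6% of the 8 genes' summed FPKM in the controls and 88.8% and 89.5% in the labelled Zmynd8 KO libraries. In every library Heph came next, then Tfrc, and Hfe and Cybrd1 were lowest in that order. Neighbours in this order changed place only at Fth1 with Ftl1 and at Slc40a1 with Slc11a2. The plot of FPKM by gene and library shows these levels.

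**Figure D1:**
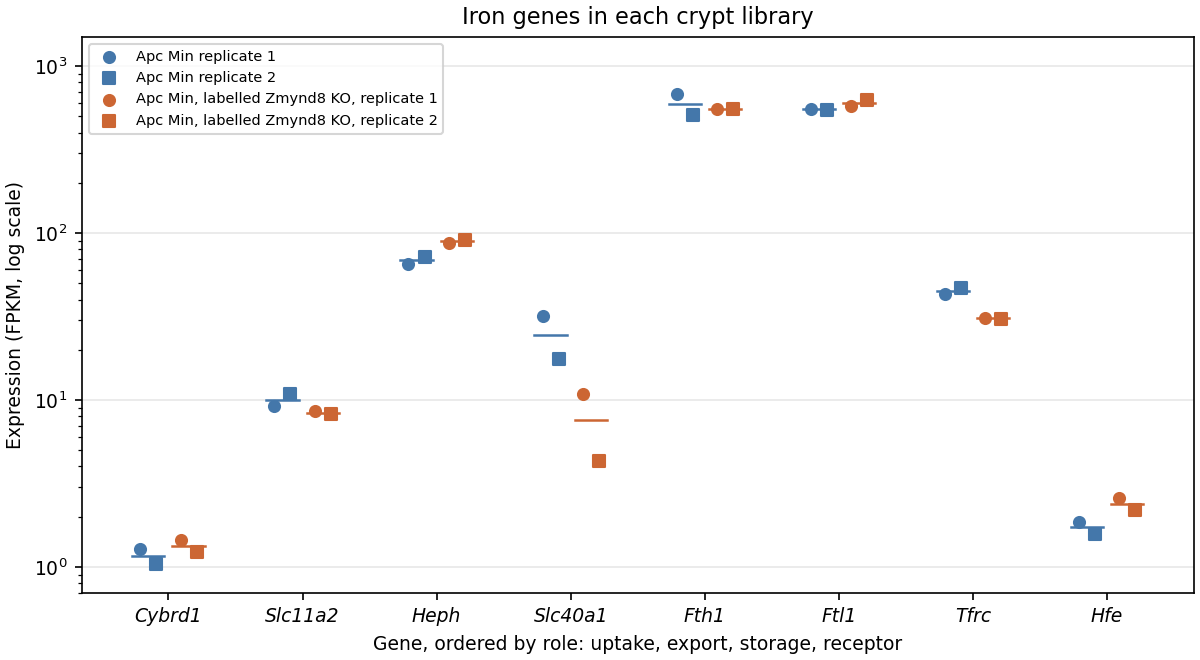
FPKM of the 8 iron genes (log axis) in each library, with blue for Apc Min, orange for the labelled Zmynd8 KO, circles for replicate 1, squares for replicate 2 and a line at each group's mean of 2 libraries. Slc40a1 runs from 31.8 down to 4.31 FPKM, while Heph and Tfrc lie close together within each group, and Fth1 and Cybrd1 overlap between the groups.

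None of the 8 genes passed the test between the groups. Limma on log2(FPKM + 1), adjusted over all genes tested by the Benjamini-Hochberg method, called 0 of 8 at an adjusted p under 0.05, where the background was 0.726% of all genes tested (94 of 12948, with 77 higher and 17 lower, or 60 higher and 4 lower after median-ratio scaling). With voom on the recovered reads the count was also 0. Without adjustment Heph (higher) and Tfrc (lower) had a p under 0.05, which makes 2 of 8, where all genes tested gave 26.6% (7.49% higher and 19.1% lower). By the q-values of the authors' deposited table, 0 of 8 were under 0.05, against 2.13% of its genes. The median log2 fold change of the 8 was 0.01, against -0.15 for all genes tested. Libraries of the groups did not overlap for 3 genes that were lower (Slc11a2, Slc40a1 and Tfrc) and 3 that were higher (Heph, Ftl1 and Hfe) in the labelled Zmynd8 KO. That held for 48.5% (lower) and 14.9% (higher) of the genes tested. After median-ratio scaling 2 of the 8 were lower and 4 higher without overlap, against 28% and 28.2% of all genes tested.

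Cybrd1, the ferric reductase of the brush border, was the lowest of the 8 genes (chromosome 2, 71118054 to 71142926, plus strand). It had 1.28 and 1.04 FPKM in the Apc Min pools, against 1.44 and 1.22 FPKM in the labelled pools. The second labelled library lay between the controls, so the groups overlapped. Limma gave a log2 fold change of 0.11 with SE 0.15, a 95% interval from -0.27 to 0.49 and an adjusted p of 0.65. After median-ratio scaling the fold change was 0.21, and both labelled libraries were then above both controls. The overlap of the groups therefore held only before that scaling. These values rest on 265 to 350 reads per library, and the counting intervals of control replicate 1 (1.14 to 1.44 FPKM, exact Poisson, 95%) and of the second labelled library (1.09 to 1.37 FPKM) overlapped. The gene ranked low in the table, at the 7.22 and 6.30 percentile of listed genes in the controls and at 13.3 and 11.6 in the labelled Zmynd8 KO.

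Slc11a2, the importer DMT1 (chromosome 15, 100387898 to 100424214, minus strand), was more abundant per length than Cybrd1 in every library. Its values were 9.16 and 10.8 FPKM in the controls and 8.56 and 8.23 FPKM in the labelled Zmynd8 KO, lower in both without overlap. On the log2 scale the difference was -0.22 with SE 0.12, its 95% interval ran from -0.53 to 0.08, and limma's adjusted p was 0.28. After median-ratio scaling it was -0.07, and the groups overlapped at 8.33 and 10.6 against 8.90 and 8.95. The gene's transcripts with and without an iron-responsive hairpin are not separated in gene-level values. Slc11a2 also overlaps the noncoding RNA gene Gm5475 over 1022 bases. Gm5475 has no value here, so reads could have been shared.

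Slc40a1, the only known iron exporter of the cell (chromosome 1, 45908070 to 45926536, minus strand), differed most of the 8 between the groups and also most within them. It had 31.8 and 17.6 FPKM in the Apc Min pools, against 10.8 and 4.31 FPKM in the labelled pools. All 4 libraries were apart, with both controls above both labelled libraries. The control mean, 24.7 ± 10.1 FPKM, was 3.26 times that of the labelled Zmynd8 KO, 7.57 ± 4.60 FPKM (SD, n = 2 each). Within a group the higher library exceeded the lower by 1.81 times in the controls and by 2.51 times in the labelled Zmynd8 KO. Counting error was far smaller than that, since the libraries held 4969, 2992, 1759 and 723 reads of the gene, and the nearest exact Poisson intervals, 16.9 to 18.2 and 10.3 to 11.3 FPKM, did not touch.

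For Slc40a1 the difference on the log2 scale was -1.64 with SE 0.55 and a 95% interval from -3.28 to 0.003, at a limma adjusted p of 0.19, so the difference did not hold up against the spread between the pools. Of all genes tested, 70 (0.541%) had a fold change at least as negative. After median-ratio scaling it was -1.48. Without the second labelled library it was -1.06, and without the first -2.22. In the authors' deposited table the gene had a log2 fold change of -1.71, with p = 0.0024 and q = 0.18. In pooled crypt RNA, fewer cells that express the gene and less of its RNA per cell cannot be told apart.

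Ferroportin is also known as a gene of iron-recycling macrophages, and absorption differs along the gut, so markers of these are set beside it. Of 18 macrophage genes 14 were tested and 0 passed by limma or voom. At an unadjusted limma p under 0.05, 1 was higher and 2 lower, against 7.49% and 19.1% of all genes tested. The summed level of the 15 listed macrophage genes was 227 and 209 FPKM in the controls and 229 and 220.4 FPKM in the labelled Zmynd8 KO. Members of the list differed in direction, with 10 of the 14 tested negative. The sum is therefore no measure of macrophage content. The phagocytic receptor gene Mertk had 26.7 and 27.1 against 44.2 and 57.9 FPKM, while the lysosomal marker Cd68 had 4.81 and 5.13 against 3.76 and 3.53 FPKM and the endotoxin co-receptor gene Cd14 had 9.87 and 5.91 against 4.13 and 4.28 FPKM. The macrophage receptor gene Adgre1 stood at 2.33 and 2.61 against 2.67 and 2.29 FPKM, and the recycling macrophage markers Cd163, Vsig4 and Spic were not analysed here.

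Enterocyte genes were summed over 22 markers at 16842 and 19328 FPKM in the controls and 27160 and 31406 FPKM in the labelled Zmynd8 KO, the opposite direction to Slc40a1. Of these 22 genes limma called 3 higher, where it called 0.595% of all genes tested higher. The 8 listed proximal genes summed to 727 and 592 FPKM against 1661 and 2592 FPKM. Fabp1 and Lct are in both the enterocyte and the proximal list, so these sums are not separate. The 8 listed ileal and bile acid genes summed to 2912 and 9862 against 4045 and 1368 FPKM. Fabp6 alone gave that order of libraries, at 1459 and 7606 against 2250 and 134 FPKM. Guca2a was the 1 ileal gene with a positive fold change, at 534 and 577 against 750 and 682 FPKM. Limma called 0 of 7 tested proximal genes (voom 1) and 0 of 8 ileal ones (voom 0). The ileal sum was highest in control replicate 2, whereas Slc40a1 was highest in control replicate 1, and both were lowest in the second labelled library. The part of these cell types and regions in the Slc40a1 values was not tested.

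Heph, whose product oxidizes iron as ferroportin releases it, had the opposite direction (X chromosome, 96455436 to 96574485, plus strand). It had 65.5 and 72.0 FPKM in the Apc Min pools, against 87.3 and 91.5 FPKM in the labelled pools. Both labelled libraries were above both controls, and the pools of a group differed by 1.10 and 1.05 times. Limma gave a log2 fold change of 0.37 with SE 0.10, a 95% interval from 0.11 to 0.64 and an adjusted p of 0.13. The fold change was 0.55 after median-ratio scaling. The interval of the single gene lay above 0, yet the difference did not pass when adjusted over all genes tested. Heph overlaps Hsf3 over 859 bases and 2 pseudogenes, all of them without values here, so reads could have been shared.

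**Figure D2:**
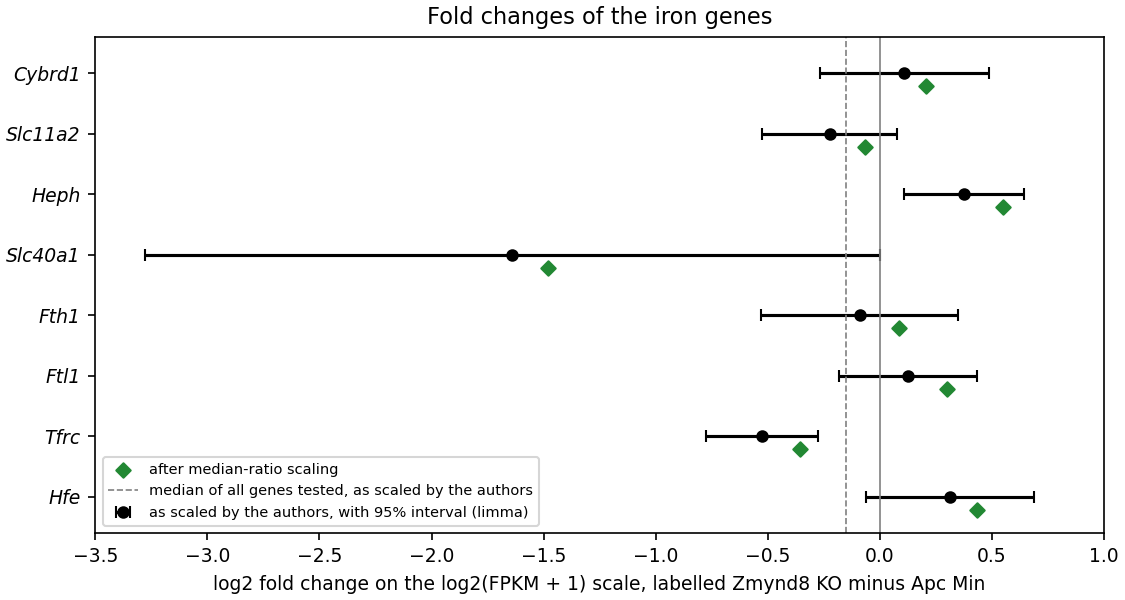
Log2 fold change of each iron gene on the log2(FPKM + 1) scale, labelled Zmynd8 KO minus Apc Min, as black points with 95% intervals from limma, and after median-ratio scaling as green diamonds. Slc40a1 has the lowest value, -1.64, and the widest interval, and the intervals of Heph (0.11 to 0.64) and Tfrc (-0.78 to -0.28) lie on one side of 0.

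Ferritin transcripts were among the most abundant of the crypt. Fth1, the heavy chain that carries the oxidase activity (chromosome 19, 9980600 to 9985111, plus strand), had 677 and 512 FPKM in the Apc Min pools, against 551 and 555 FPKM in the labelled pools. The labelled libraries agreed within 1.01 times and lay between the controls. On the log2 scale the difference was -0.09 with SE 0.17, its 95% interval ran from -0.53 to 0.35, and limma's adjusted p was 0.75. After median-ratio scaling it was 0.09, and without control replicate 1 it was 0.11. The direction of Fth1 therefore turned with the scaling and with 1 control library.

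Ftl1, the light chain that supports mineral storage (chromosome 7, 45457944 to 45459886, minus strand), had 553 and 549.8 FPKM in the Apc Min pools, against 577 and 627 FPKM in the labelled pools. Both labelled libraries were above both controls, by little. The difference on the log2 scale was 0.13 with SE 0.12 and a 95% interval from -0.18 to 0.43, at a limma adjusted p of 0.52. After median-ratio scaling it was 0.30. Both ferritin genes have processed copies elsewhere in the genome, and reads could have been split with them. The copy Ftl1-ps1 was itself listed, at 5.42 and 3.49 FPKM against 6.13 and 6.35 FPKM.

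Tfrc, the transferrin receptor (chromosome 16, 32608896 to 32632794, plus strand), had the smallest p of the 8 genes. It had 42.9 and 46.9 FPKM in the Apc Min pools, against 31.2 and 30.5 FPKM in the labelled pools, lower in both. The control mean was 1.46 times the other, while the pools of a group differed by 1.09 and 1.02 times. Limma gave a log2 fold change of -0.53 with SE 0.10, a 95% interval from -0.78 to -0.28 and an adjusted p of 0.084. The fold change was -0.36 after median-ratio scaling (limma adjusted p = 0.20, where all alternatives ran from 0.070 to 0.55). The gene did not pass under any of the 13 alternatives tried.

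Markers of dividing crypt cells went the same way as Tfrc. Their summed level over 18 genes was 389 and 355 FPKM in the controls and 261 and 266 FPKM in the labelled Zmynd8 KO. All 18 were lower without overlap, 0 passed by limma or voom, and 16 had an unadjusted p under 0.05, where 48.5% of all genes tested were lower without overlap and 19.1% lower at that p. After median-ratio scaling 16 were lower without overlap, against 28% of all genes tested. Erythroid markers, another known source of Tfrc, had 5 listed genes of 14, and these summed to 26.9 and 68.1 against 38.6 and 36.2 FPKM, with groups that overlapped. The part of either in the Tfrc values was not tested.

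Hfe, the partner of the transferrin receptor (chromosome 13, 23702730 to 23710986, minus strand), had 1.86 and 1.59 FPKM in the Apc Min pools, against 2.59 and 2.19 FPKM in the labelled pools. Both labelled libraries were above both controls. On the log2 scale the difference was 0.31 with SE 0.15, its 95% interval ran from -0.06 to 0.69, and limma's adjusted p was 0.24. After median-ratio scaling the difference was 0.43. These values rest on 235 to 366 reads, and the exact Poisson intervals of control replicate 1 (1.64 to 2.11 FPKM) and of the second labelled library (1.96 to 2.44 FPKM) overlapped. B2m, which encodes the light chain that Hfe needs to reach the cell surface, stood at 1522 and 1663 FPKM against 1848 and 1843 FPKM (log2 fold change 0.21, limma adjusted p = 0.34).

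Ratios of 2 genes within a library do not depend on how libraries are scaled against each other. The pairs were chosen after the values were seen, so they are described without a test. The ratio of Heph to Slc40a1, oxidase to exporter, was 2.06 and 4.10 in the Apc Min pools, against 8.07 and 21.2 in the labelled pools. The groups did not overlap, which follows from Heph being higher and Slc40a1 lower without overlap. The pools of the labelled group were further apart than those of the controls. The ratio of exporter to importer, Slc40a1 to Slc11a2, was 3.47 and 1.62 in the Apc Min pools, against 1.26 and 0.524 in the labelled pools. Exporter RNA thus exceeded importer RNA per length in 3 libraries and was below it in the second labelled one.

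The other ratios were closer between the groups. Hfe to Tfrc was 0.0434 and 0.0338 in the Apc Min pools, against 0.0831 and 0.0717 in the labelled pools. The lack of overlap there follows from Hfe being higher and Tfrc lower without overlap. Cybrd1 to Slc11a2 was 0.140 and 0.0963 against 0.169 and 0.149, also apart but with a gap smaller than that between the controls. Tfrc to Fth1, the receptor against the store, was 0.0634 and 0.0917 in the Apc Min pools, against 0.0566 and 0.0550 in the labelled pools. Fth1 to Ftl1 was 1.22 and 0.931 against 0.954 and 0.885, and there the groups overlapped.

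**Figure D3:**
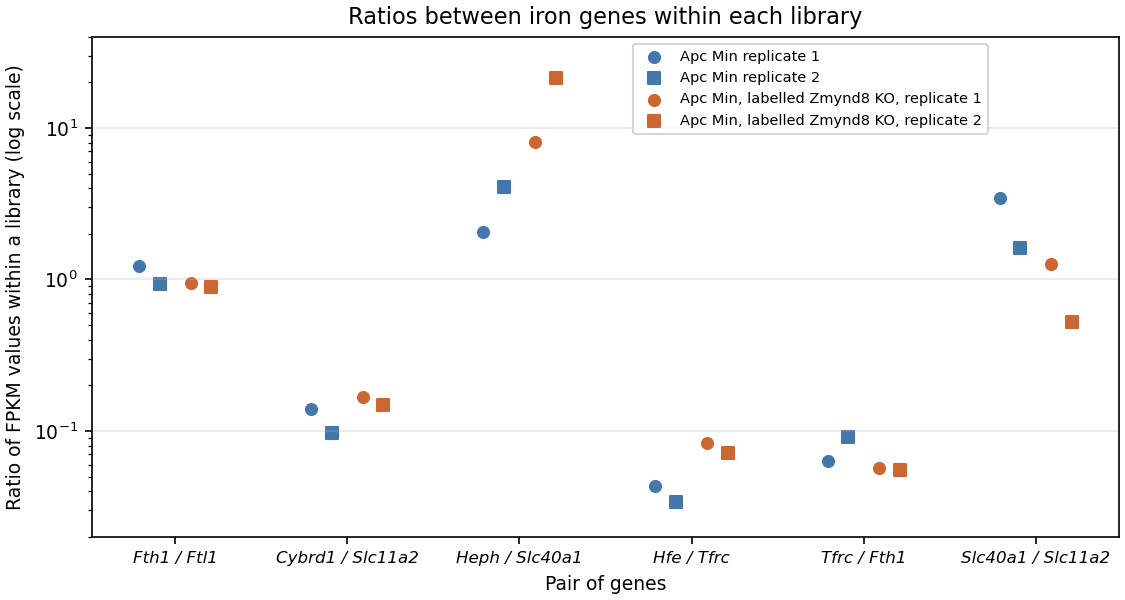
Ratio of FPKM values of 2 iron genes within each library (log axis), with blue for Apc Min, orange for the labelled Zmynd8 KO, circles for replicate 1 and squares for replicate 2. The ratio of Heph to Slc40a1 ranges from 2.06 to 21.2, while that of Fth1 to Ftl1 stays between 0.885 and 1.22.

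Genes with a profile like that of Slc40a1, the iron gene with the largest fold change, were found by the root mean square difference of centred log2(FPKM + 1) values over the 4 libraries, among genes with a mean of at least 5 FPKM. The closest were Lamb3, a laminin chain gene, at 0.15, Cldn2, a claudin gene of leaky tight junctions, at 0.19, Sprr2a1, a small proline-rich protein gene, at 0.21, and the homeobox gene Hoxb6 and the calcium-binding protein gene S100a16, both at 0.22. Cldn2 had 91.5 and 60.4 FPKM in the Apc Min pools, against 37.0 and 20.8 FPKM in the labelled pools. All 5 were highest in control replicate 1 and lowest in the second labelled library, as Slc40a1 was. They were picked for a profile like its own over these libraries, so that likeness is no separate result. None of the 5 passed limma (adjusted p from 0.14 to 0.23). Of the other iron genes Tfrc was the closest to Slc40a1, at 0.76, with 919 of 7345 compared genes closer. The measure uses only 4 libraries and says nothing of shared control.

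**Figure D4:**
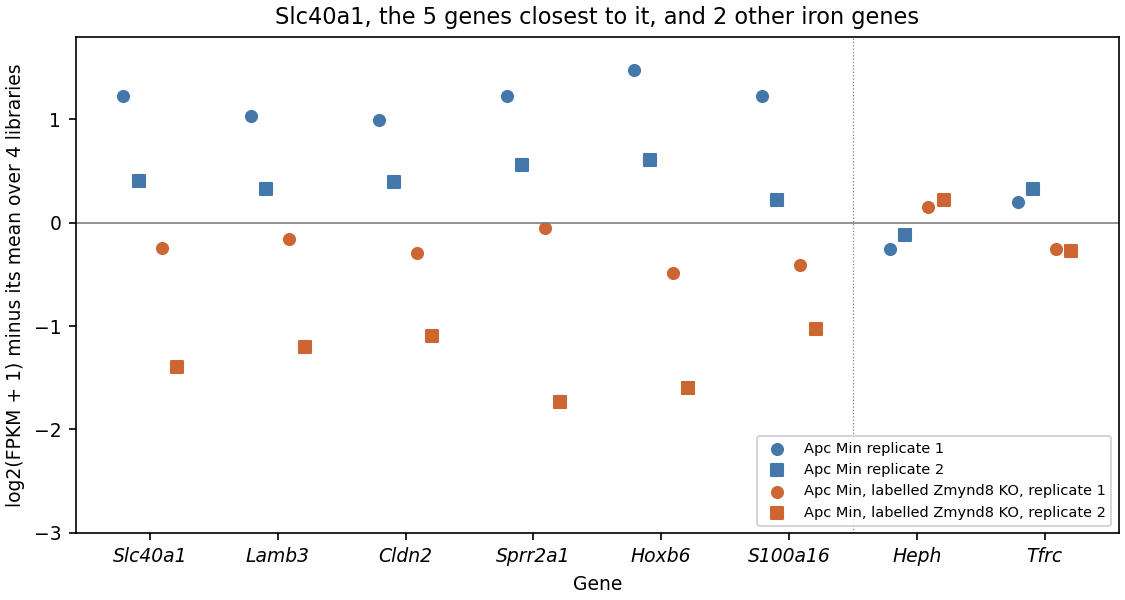
Log2(FPKM + 1) minus its mean over the 4 libraries for Slc40a1, the 5 genes of smallest root mean square difference to it, and Heph and Tfrc to the right of the dotted line (blue Apc Min, orange labelled Zmynd8 KO, circles replicate 1, squares replicate 2). The first 6 genes share 1 order of libraries, which comes from picking the 5 by their profile, and Heph runs the other way.

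Other genes of iron uptake, heme iron and ferritin turnover gave 0 calls by limma or voom among 21 tested of 28. At an unadjusted limma p under 0.05, 1 was higher and 2 lower, against 7.49% and 19.1% of all genes tested. The list had a median log2 fold change of -0.23 against -0.15 for all genes tested. Slc39a14, a zinc and iron transporter gene, had 15.2 and 15.1 FPKM in the Apc Min pools, against 18.9 and 20.5 FPKM in the labelled pools (log2 fold change 0.36, limma adjusted p = 0.12). Steap3, an endosomal iron reductase gene, stood at 3.04 and 4.003 against 2.54 and 1.76 FPKM, lower in both. Pcbp1, a chaperone that hands iron to ferritin, stood at 128 and 116 against 101 and 106 FPKM. Ncoa4, the receptor that delivers ferritin for breakdown, overlapped between groups at 21.96 and 15.0 against 17.4 and 21.7 FPKM. The proton-coupled folate and heme transporter gene Slc46a1 had 8.41 and 6.98 FPKM in the Apc Min pools, against 7.41 and 13.8 FPKM in the labelled pools.

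The genes that sense iron and oxygen gave 0 calls by limma or voom among 17 tested of 21, around a median of -0.05. Of these, 1 was higher and 1 lower at an unadjusted limma p under 0.05, against 7.49% and 19.1% of all genes tested. Aco1, the iron regulatory protein that doubles as cytosolic aconitase, had 42.7 and 44.3 FPKM in the Apc Min pools, against 50.4 and 54.9 FPKM in the labelled pools (log2 fold change 0.27, limma adjusted p = 0.18). Ireb2, the other iron regulatory protein, stood at 18.3 and 15.0 against 18.2 and 18.7 FPKM. Epas1 encodes HIF-2 alpha, which is known to drive Slc11a2, Cybrd1 and Slc40a1 in the gut, and it stood at 17.3 and 14.9 against 14.7 and 14.1 FPKM (-0.15, adjusted p = 0.42). Fbxl5, which targets Ireb2 protein for breakdown, overlapped at 35.0 and 26.5 against 28.7 and 33.0 FPKM. The hepcidin genes Hamp and Hamp2 were not analysed here.

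Genes of the mitochondrial use of iron, for heme and iron-sulfur clusters, also gave 0 calls by limma or voom among 29, around a median of -0.10. Of these, 1 was higher and 3 lower at an unadjusted limma p under 0.05, against 7.49% and 19.1% of all genes tested. Nubp1, a scaffold of cytosolic iron-sulfur assembly, had 9.66 and 9.39 FPKM in the Apc Min pools, against 6.55 and 6.11 FPKM in the labelled pools (log2 fold change -0.52, SE 0.10, limma adjusted p = 0.090). Isca1, an assembly factor, was higher without overlap at 28.4 and 26.3 against 31.6 and 35.5 FPKM. Fech, which inserts iron into heme, stood at 11.8 and 13.6 against 11.8 and 10.8 FPKM, and the mitochondrial iron importer gene Slc25a37 at 33.0 and 36.1 against 39.6 and 30.7 FPKM.

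Genes for other metals gave 0 calls by limma or voom among 28 tested of 29, but spread more widely than the iron lists. At an unadjusted limma p under 0.05, 4 were higher and 3 lower, against 7.49% and 19.1% of all genes tested. The metallothionein gene Mt1, whose product binds zinc and copper, had 46.5 and 94.2 FPKM in the Apc Min pools, against 442 and 399 FPKM in the labelled pools (log2 fold change 2.65, SE 0.37, limma adjusted p = 0.078). The other listed metallothionein gene, Mt2, overlapped between the groups at 20.1 and 60.7 against 58.7 and 58.6 FPKM (0.73, limma adjusted p = 0.49). Slc30a2, a vesicular zinc transporter gene, stood at 24.3 and 18.4 against 48.7 and 54.8 FPKM (1.25, SE 0.16, adjusted p = 0.057), and the copper transporter gene Atp7b at 1.72 and 1.49 against 3.06 and 3.08 FPKM. S100g, a calcium-binding protein gene of the absorptive cell, went the other way, at 43.1 and 12.5 against 4.65 and 3.21 FPKM. Slc39a4, the zinc importer gene of the brush border, overlapped at 90.0 and 107 against 101 and 105 FPKM.

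Of 24 hypoxia response genes 2 fell and 0 rose by limma, where 0.131% of all genes tested were called lower. Ankrd37 fell from 6.79 and 5.90 FPKM in the controls to 1.95 and 2.04 FPKM in the labelled Zmynd8 KO (log2 fold change -1.29, SE 0.13, adjusted p = 0.042). Ufsp2 overlaps it from the other strand, and reads of these genes could have been mixed. Adm, the adrenomedullin gene, fell from 3.81 and 3.49 to 1.04 and 1.06 FPKM (-1.18, SE 0.13, adjusted p = 0.045), and it overlaps the gene model Gm28863, which has no value here. Voom called neither (adjusted p = 0.052 and 0.063, where the alternatives ran from 0.030 to 0.34 for Ankrd37 and from 0.038 to 0.37 for Adm). The median of the list was -0.20, close to that of all genes tested. Of the 24 genes 19 had a negative fold change and 5 a positive one, or 14 and 10 after median-ratio scaling. Egln3, a prolyl hydroxylase gene, stood at 46.3 and 27.8 against 26.4 and 19.6 FPKM, and Vegfa at 28.9 and 27.98 against 33.2 and 41.2 FPKM.

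**Figure D5:**
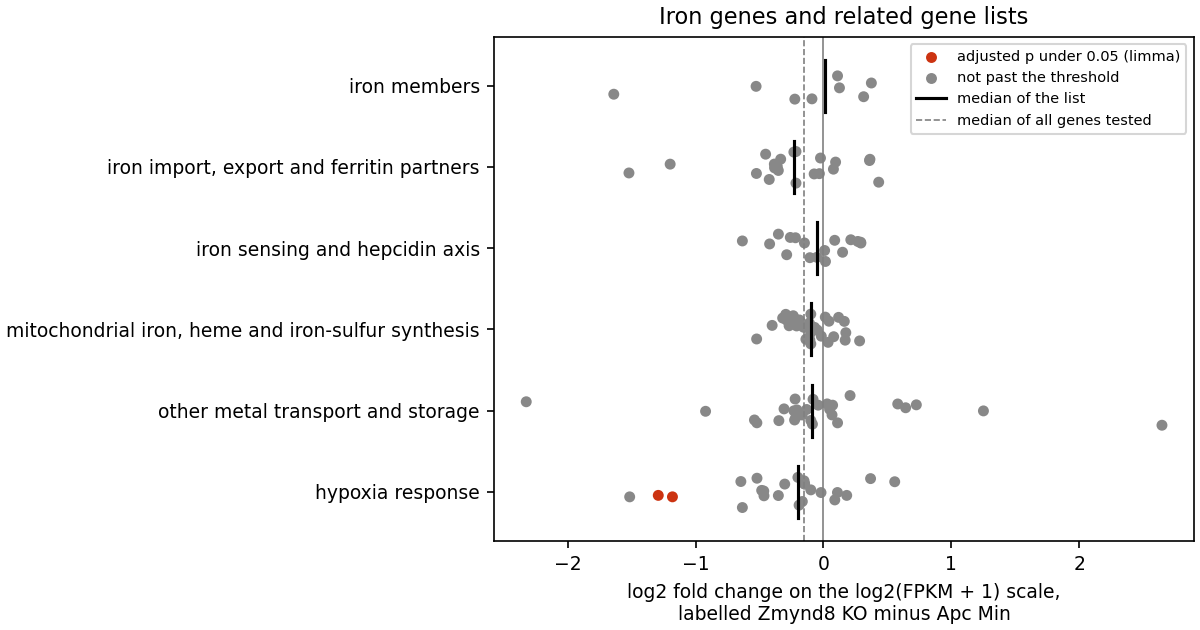
Log2 fold change of every tested gene of the iron genes and of related lists (points, with vertical scatter for visibility only), with list medians as black lines and the median of all genes tested, -0.15, as a dashed line. Only Ankrd37 and Adm, both in the hypoxia list, pass limma's threshold here, and the widest values, 2.65 for Mt1 and -2.32 for S100g, are in the list for other metals.

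Ferritin genes are also known targets of the antioxidant regulator NRF2. Of 15 tested NRF2 targets of 16, limma called 1 higher and 0 lower (voom 0), with 5 higher and 3 lower at an unadjusted p under 0.05. Of all genes tested 0.595% were called higher, and 7.49% were higher and 19.1% lower at that unadjusted p. The gene called was Gsta1, a glutathione transferase gene, which rose from 9.77 and 8.76 to 22.1 and 21.3 FPKM (log2 fold change 1.15, SE 0.10, adjusted p = 0.042). It was called under 6 of the 13 alternatives, with adjusted p from 0.027 to 0.28. The list had 7 positive and 8 negative members. Gclc, of glutathione synthesis, stood at 18.2 and 21.8 against 34.9 and 38.96 FPKM (0.85, adjusted p = 0.068). Pgd, of the pentose phosphate pathway, went the other way at 153.5 and 142 against 102 and 111 FPKM (-0.47, adjusted p = 0.11). Gclm, the partner of Gclc, stood at 38.0 and 34.2 against 47.1 and 53.0 FPKM (0.46, adjusted p = 0.11).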

How the data were processed

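RNA-seq values of 4 crypt libraries were used, 2 per group, each from RNA of 3 mice. The submitters' processing notes name HISAT2 and mm10 among their tools and builds, without roles or versions. The sources used here name no counting tool, annotation or strand setting. The deposited table gives no unit. Its values were read as FPKM made by the authors, since each was a whole number of reads over a gene length and 1 total per library. Group means, log2 fold changes, p-values and q-values are the authors', per the file headers, which do not name the test. Of 13527 entries, 168 exact repeats were dropped. Whole reads were recovered within 0.002 for 13359 of 13359 genes by the shortest fitting length, so a gene's reads may be understated. Intervals on reads cover counting error only.

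Groups were compared with limma 3.58.1 in R 4.3.3 (trend, robust) on log2(FPKM + 1), a scale that understates changes of low genes, after keeping genes that reached 1 FPKM in 2 or more libraries. P-values were adjusted over all 12948 tested genes, with a threshold of 0.05. Self-tests on simulated data were run. Lists came from textbook knowledge. Members and lists were chosen with earlier results of these data known. Genes named are the 8 iron genes, members of the iron, metal and hypoxia lists, up to 4 genes of smallest p or defining markers of other lists, Zmynd8, and the 5 closest in profile to the iron gene of largest fold change. Alternatives changed the pseudocount, filter, scaling, variance model, count scale, pairing and libraries. Sequences are RefSeq's, GRCm38.p6. Unused per-sample columns numbered 0.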

Additional observations from a re-analysis of the deposited data

How the results depend on the processing

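No iron gene was called under any of the 13 alternatives tried (Cybrd1 and Hfe were not tested at a mean of 5 FPKM). The direction of 7 of the 8 held in all of them. That of Fth1, -0.09, turned to 0.086 with median-ratio scaling and ran from -0.29 to 0.11 with single libraries left out. Of other genes named, median-ratio scaling turned Epas1 to 0.017 and Fech to 0.0067, and voom turned Adgre1 to -0.0012. With single libraries left out, the direction turned within these ranges: Fbxl5 -0.18 to 0.21, Ncoa4 -0.17 to 0.36, Hmox1 -0.86 to 0.14, Slc46a1 -0.043 to 0.77, Lcn2 -3.02 to 0.62, Hif1a -0.97 to 0.26, Slc25a37 -0.16 to 0.19, Slc39a4 -0.058 to 0.19 and Adgre1 -0.075 to 0.079. The cause was not tested. The median log2 fold change of the 8, 0.01, became -0.16 at a mean of at least 5 FPKM, with 6 of them tested, and 0.15 with median-ratio scaling, and ran from -0.042 to 0.12 with single libraries left out. The count of all genes called, 94 (77 higher, 17 lower), was 1 without a filter, 2 at a mean of 5 FPKM, 11 without trend and robust moderation, 64 with median-ratio scaling (60 higher, 4 lower), 66 with quantile normalization (61 higher, 5 lower), and from 0 to 616 with single libraries left out (616 without control replicate 2, 80 without control replicate 1, 0 without either labelled library), where the lone library is assumed to vary like the other group. With the replicate number as a block it was 0, and no call was left to compare. The numbers share no stated litter or day, and replicate differences of the groups correlated at 0.0452 across genes, so they were not taken to pair the samples. Counting error per library was from 0.47% to 0.65% for the ferritins and from 5.2% to 6.5% for Cybrd1 and Hfe.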

Other observations

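Genes for secreted iron carriers were far apart between the 2 control libraries. Trf, the transferrin gene, stood at 43.4 FPKM in control replicate 1, 6.89 in control replicate 2, and 5.73 and 5.34 in the labelled Zmynd8 KO. Lcn2, which encodes a binder of bacterial iron chelators, had 43.5 and 2.57 FPKM in the Apc Min pools, against 3.25 and 6.11 FPKM in the labelled pools. The heme oxygenase gene Hmox1 stood at 3.77 and 1.39 against 1.68 and 1.59 FPKM, and Cp, the circulating relative of hephaestin, at 3.04 and 1.31 against 1.22 and 1.25 FPKM. Hif1a stood at 41.8 and 17.2 against 20.2 and 21.6 FPKM. In all 5 control replicate 1 was highest, and limma gave adjusted p from 0.36 to 0.66. Heph and Ftl1, by contrast, differed by 1.10 and 1.01 times between the same controls. Without control replicate 2, the only control left is the library where these genes were highest, so a fall is built in. The log2 fold changes were then -2.77 for Trf and -0.97 for Hif1a. Without control replicate 1 these fold changes were -0.27 and 0.26, and over all alternatives the adjusted p ran up to 0.78 for Trf and 0.87 for Hif1a.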
